A study of Mus musculus with 20 samples.

Results

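The cardiac myosin heavy chain genes Myh6, Myh7 and Myh7b and the long non-coding RNA Mhrt, 4 genes in all, were followed through 20 mouse hearts. They were chosen by symbol. All 4 were listed both in the 6-month table, among 18657 genes, and in the 6-week table, among 17808 genes. The hearts fell into 5 groups. At 6 weeks there were 3 Sorbs2 KO and 3 WT mice. At 6 months there were 4 Sorbs2 KO mice given a Sorbs2 vector (KO+AAV), 5 KO mice and 5 WT mice. The vector was AAV9-Tnnt2-Sorbs2, in which the cardiomyocyte promoter of Tnnt2 drives Sorbs2, and it was given on postnatal day 2. The other 4 groups were untreated, so no group received an empty vector. The Sorbs2 protein is an adaptor found at the Z-disc of cardiac muscle. Per the labels, poly(A) RNA of ventricular tissue was sequenced from stranded libraries, and each value below is a normalised count as the authors deposited it.

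Myosin heavy chains are the motor proteins of the thick filament. The adult mouse ventricle uses mainly the fast alpha chain, encoded by Myh6. The slow beta chain, encoded by Myh7, dominates before birth, and a return of Myh7 with a loss of Myh6 is a widely used sign of stress in rodent hearts. Thyroid hormone is known to raise Myh6 and to lower Myh7 in rodents. Myh7b is an ancient slow-type relative of Myh7 that lies on another chromosome. Mhrt is read from the strand opposite to Myh7 and is known in mice as a nuclear RNA that binds the chromatin remodeller Brg1 and is lost under pressure overload. Each of the 3 heavy chain genes also carries a microRNA in an intron.

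Myh6 (ENSMUSG00000040752.16) spans chr14:54941921-54966927 in mm10 on the reverse strand, with 39 exons and a transcript of 6113 bases in the GENCODE M21 annotation. Myh7 (ENSMUSG00000053093.16) lies upstream of it at chr14:54970684-54994626, on the same strand, with 41 exons and 6135 bases. Mhrt (ENSMUSG00000097652.2) runs the other way at chr14:54968678-54974349, with 5 exons and 828 bases. It starts 1751 bases beyond the 5′ end of Myh6 and runs into the 3′ part of Myh7. Of the 828 exonic bases of Mhrt, 484 (58.5%) lie opposite exons of Myh7. Myh7b (ENSMUSG00000074652.3) lies at chr2:155611212-155634307 on the forward strand, with 42 exons and 6163 bases.

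**Figure D1:**
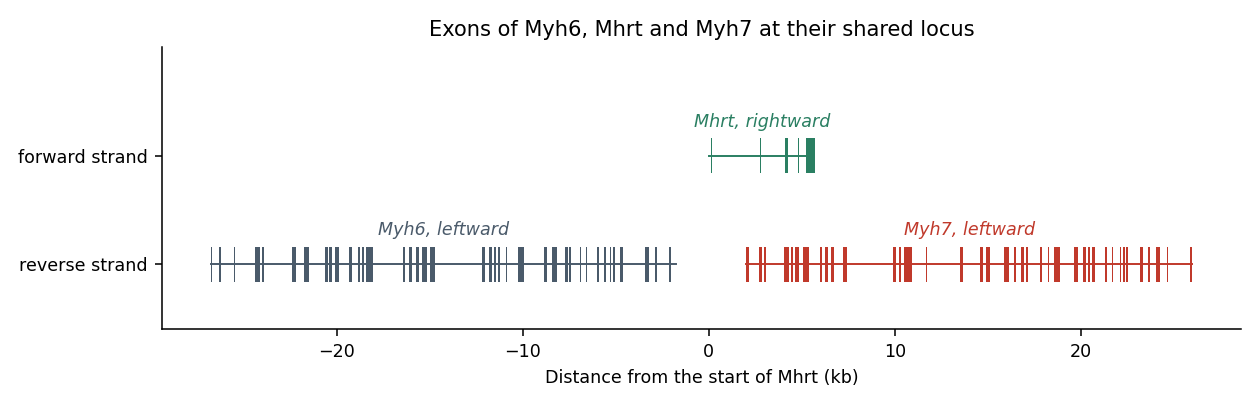
Exons (boxes) and introns (lines) of Mhrt on the forward strand and of Myh6 and Myh7 on the reverse strand, drawn to scale against the distance from the start of Mhrt in kb. Mhrt begins between the other genes, and 58.5% of its exonic bases lie opposite exons of Myh7.

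This layout limits how the reads of these genes can be told apart. The libraries were stranded, but the sources used here do not say whether the counting used the strand. Without it, reads of Mhrt and Myh7 where they overlap cannot be told apart. Myh6 and Myh7 are also alike in sequence: 32.3% of the stretches of 31 bases in Myh6 recur in Myh7, and 11.4% of those of 100 bases do. Mhrt shares 34.0% of its stretches of 31 bases and 9.88% of those of 100 bases with the opposite strand of Myh6. Myh7b shares 0.293% of its stretches of 31 bases with other genes, among them Trpc4ap, Myh1, Myh8 and Myh13, and none of 100 bases.

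The microRNAs are shown because their hosts are the measured genes. Mir208a lies in intron 29 of 38 of Myh6, Mir208b in intron 31 of 40 of Myh7 and Mir499 in intron 19 of 41 of Myh7b, each on the strand of its host. The mature sequences from RefSeq (GRCm38.p6) follow, with the seed, bases 2 to 8, in capitals. The first is at chr14:54949072-54949093 on the reverse strand, the second at chr14:54975710-54975731 on the reverse strand and the third at chr2:155622893-155622913 on the forward strand.
mmu-miR-208a-3p: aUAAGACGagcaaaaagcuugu
mmu-miR-208b-3p: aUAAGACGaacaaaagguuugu
mmu-miR-499-5p: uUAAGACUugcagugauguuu
The microRNAs of Myh6 and Myh7 share the seed UAAGACG and differ at 3 of 22 positions. The seed in Myh7b is UAAGACU. The microRNAs themselves were not measured, so only their hosts are described.

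The promoters of the 3 neighbouring genes are shown because these genes moved in opposite directions. Each stretch holds the 250 bases before and the 50 bases after a RefSeq start (for Myh7 the first of its listed starts). Capitals mark CATTCC on either strand, the core of the MCAT element to which TEAD factors bind. The windows are chr14:54994577-54994876 (reverse strand) for Myh7, chr14:54966558-54966857 (reverse strand) for Myh6 and chr14:54968537-54968836 (forward strand) for Mhrt.
Myh7: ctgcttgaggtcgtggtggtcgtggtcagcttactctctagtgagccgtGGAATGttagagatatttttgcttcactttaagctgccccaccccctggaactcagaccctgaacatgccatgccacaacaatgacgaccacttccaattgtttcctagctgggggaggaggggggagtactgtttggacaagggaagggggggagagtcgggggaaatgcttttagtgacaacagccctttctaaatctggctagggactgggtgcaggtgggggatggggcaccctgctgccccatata
Myh6: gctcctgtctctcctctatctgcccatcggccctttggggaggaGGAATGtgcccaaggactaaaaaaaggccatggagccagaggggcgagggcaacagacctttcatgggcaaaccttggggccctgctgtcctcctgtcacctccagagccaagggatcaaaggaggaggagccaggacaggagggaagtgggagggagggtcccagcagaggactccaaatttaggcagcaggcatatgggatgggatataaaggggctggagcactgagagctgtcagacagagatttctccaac
Mhrt: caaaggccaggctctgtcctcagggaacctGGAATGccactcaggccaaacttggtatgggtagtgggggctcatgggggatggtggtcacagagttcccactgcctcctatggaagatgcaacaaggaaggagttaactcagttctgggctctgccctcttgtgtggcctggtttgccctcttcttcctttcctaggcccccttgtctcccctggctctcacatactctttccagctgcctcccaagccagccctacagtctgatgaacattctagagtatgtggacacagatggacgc
Each window holds CATTCC 1 time, on the strand opposite to the gene, with its first base at -201 for Myh7, -206 for Myh6 and -220 for Mhrt. The Myh7b window holds none. Of 32851 windows of the same length in RefSeq, 14.7% hold this motif on either strand. Another 3 motifs were searched on both strands in the same windows. The half-site of nuclear receptors, AGGTCA, was found in the Myh7b window alone, at -46, and in 16.3% of all windows. The site of factors such as Gata4, AGATAA, was found in the Myh7b window alone, at -133, and in 11.2% of all windows. The sequence of the TATA box, TATAAA, was found in the Myh6 window alone, at +2, and in 13.6% of all windows. That match lies after the start used here, and whether it acts as a TATA box was not tested. All positions depend on the RefSeq start that was taken.

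Totals of normalised counts were 11359135 to 13670340 per library at 6 months and 6705133 to 8240294 at 6 weeks, and levels are compared within an age alone. Sorbs2 was lower in KO than in WT hearts, at 276 to 365 against 1409 to 1990 at 6 weeks and at 494 to 1755 against 4562 to 5398 at 6 months. Within the 6-month KO group, KO 1 and KO 5 had Sorbs2 at 1648 and 1755, and the other 3 had 494 to 612. In KO+AAV hearts Sorbs2 was 4696, 5753, 15690 and 17923. By Xist above 1000, 1 library of each 6-week group, 2 KO+AAV, 0 KO and 2 WT libraries of 6 months were classed as female. The others were classed as male by their lower Xist, and Y-linked genes did not enter this class. The tissue was checked against atrial markers. Myl7, the atrial light chain, was at 20062 to 35244 in KO and 22450 to 32889 in WT hearts at 6 weeks, but at no more than 7.82 in KO+AAV, 459 in KO and 47.5 in WT hearts at 6 months. The 6-week libraries thus held atrial RNA, although they were labelled as left ventricle. Atria also express Myh6, and its part in the 6-week values was not tested.

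Myh7 rose about 10-fold in KO hearts at each age, and at 6 months it was lower in KO+AAV than in KO hearts. At 6 weeks the normalised counts of Myh7 were 26077, 8156 and 7892 in KO hearts, against 1750, 1117 and 883 in WT hearts. Every KO heart lay above every WT heart, and 1 KO heart stood well above the other 2. The log2 change, on the log2(value + 1) scale, was 3.31 (SE 0.42), a fold of 9.90, with an adjusted p of 0.00791 by limma with Benjamini-Hochberg adjustment. Of 13242 genes tested, 0.589% were called, 0.378% as higher, and 10.9% had all KO hearts above all WT hearts. The call was lost without the WT library headed WT6 (log2 3.26, adjusted p = 0.0508).

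At 6 months Myh7 was at 10988, 50766, 45479 and 13717 in KO+AAV hearts, at 137963, 97021, 99579, 150922 and 209559 in KO hearts, and at 12919, 8894, 9170, 18758 and 21171 in WT hearts. No KO heart overlapped either of the other groups. Between KO and WT the log2 change was 3.32 (SE 0.42), a fold of 10.01 with a 95% interval of 5.43 to 18.5 (adjusted p = 6.97e-05, limma). In this comparison 16.3% of 13419 genes were called, 8.13% as higher, and 6.56% had all KO hearts above all WT hearts. Myh7 dropped by 2.46 on the log2 scale in KO+AAV relative to KO hearts (SE 0.44, adjusted p = 0.00349), or 5.49-fold. There 11.2% of genes were called, 5.69% as lower, and 7.44% had all KO+AAV hearts below all KO hearts. The comparisons share the 5 KO libraries.

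The KO+AAV hearts fell into a lower and a higher pair. Hearts 1 and 4 were within the range of the WT hearts, and hearts 2 and 3 lay above every WT heart but below every KO heart. This split did not follow the level of Sorbs2, which was 4696 and 17923 in hearts 1 and 4 and 5753 and 15690 in hearts 2 and 3. Between KO+AAV and WT the log2 difference of Myh7 was 0.87, with a 95% interval of -0.07 to 1.80 (adjusted p = 0.304, limma; 1.33% of genes were called). The interval leaves room for up to 3.49-fold more Myh7 in KO+AAV hearts.

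**Figure D2:**
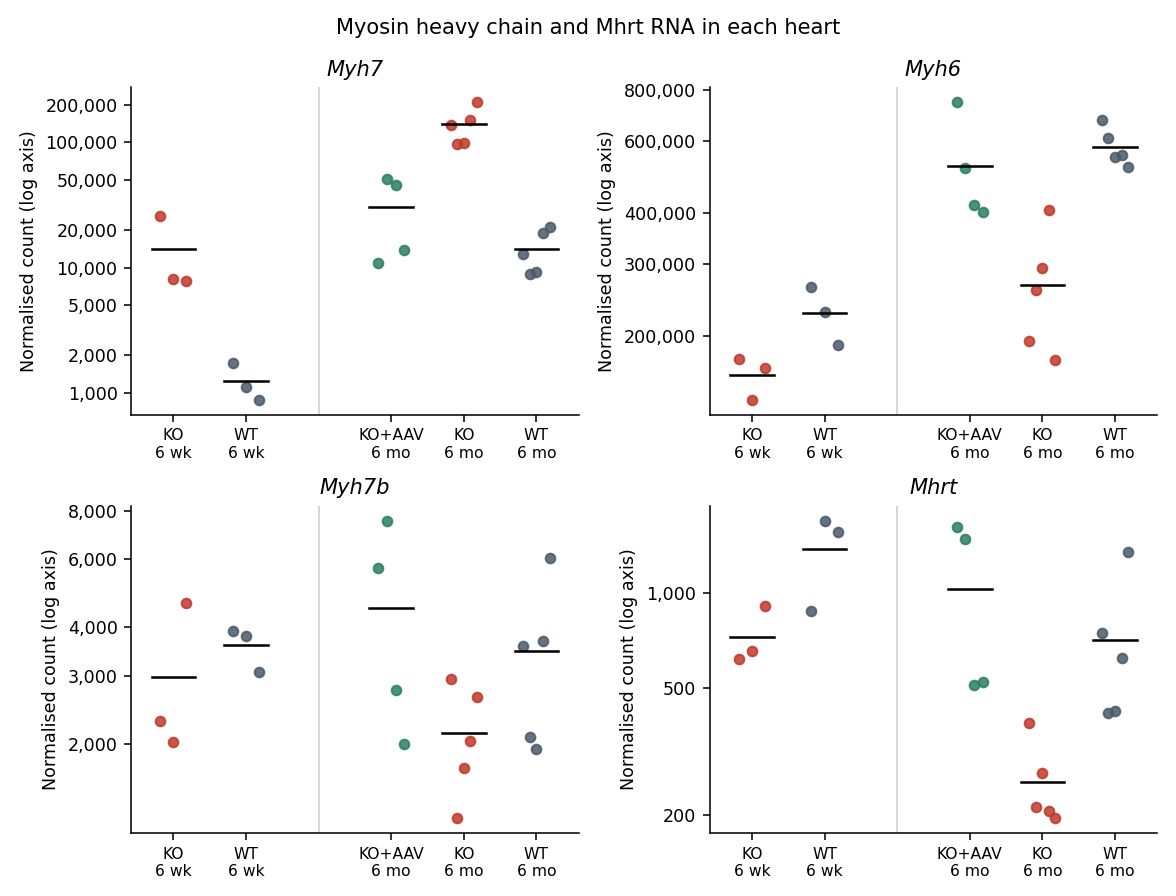
Normalised counts of Myh7, Myh6, Myh7b and Mhrt in each heart (points) with group means (lines), on log axes, at 6 weeks (KO, WT) and 6 months (KO+AAV, KO, WT); the tables of both ages were normalised separately. Myh7 of KO hearts lies above all WT hearts at both ages, and at 6 months Myh6 and Mhrt of KO hearts lie below all WT hearts.

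Female hearts had the highest Myh7 in 3 groups. The female heart was the 26077 of the 6-week KO group and the 1750 of the 6-week WT group, and the 2 female WT hearts of 6 months, at 18758 and 21171, lay above the 3 male ones, at 8894 to 12919. In the KO+AAV group the females were at 10988 and 45479 and the males at 13717 and 50766, so they were mixed. The 6-month KO group held no female, and with 1 or 2 females a group this pattern was not tested. Among male libraries of 6 months alone, the log2 change of Myh7 was 3.71 between KO and WT (adjusted p = 0.000164, limma) and -2.34 between KO+AAV and KO (adjusted p = 0.0241).

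Myh6, the main heavy chain of the adult mouse heart, moved the other way and by less. At 6 weeks it was at 175697, 139341 and 166871 in KO hearts, against 263001, 228311 and 189385 in WT hearts. Every KO heart was below every WT heart, as in 10.3% of all genes tested. The log2 change of -0.49 did not pass (95% interval -1.48 to 0.50, adjusted p = 0.629, limma). This interval rests on a variance that limma drew partly from its trend over genes of like level. The SD of the Myh6 values themselves was 11.8% of the mean in KO and 16.2% in WT hearts. At 6 months Myh6 was at 748711, 515745, 419425 and 402150 in KO+AAV hearts, at 194565, 258870, 294127, 406774 and 174544 in KO hearts, and at 676055, 612153, 549041, 556285 and 517771 in WT hearts. The highest KO heart lay below the lowest WT heart and within the KO+AAV range.

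Between KO and WT at 6 months Myh6 fell by 1.19 on the log2 scale (SE 0.30, adjusted p = 0.0126, limma), or 2.28-fold. In this comparison 8.18% of genes were called lower and 7.29% had all KO hearts below all WT hearts. The fall lost its call without KO 1 and KO 5, the KO hearts of higher Sorbs2 (log2 -0.88, adjusted p = 0.0857), and under quantile normalisation (log2 -0.46, adjusted p = 0.342), which gives the top gene of every library the same value. In bulk tissue, fewer cardiomyocytes and less Myh6 RNA per cardiomyocyte cannot be told apart. The summed level of 10 other ventricular cardiomyocyte markers was 659224 to 805881 in KO and 936356 to 1087150 in WT hearts, and 2 of the 10 fell (Tnni3 and Myl3), with a median log2 change of -0.56 against 0.00 over all genes. The part of cell number in the change of Myh6 was not tested.

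Between KO+AAV and KO the log2 change of Myh6 was 0.99 (SE 0.32), with an adjusted p of 0.0555 by limma. It passed without KO 4 (adjusted p = 0.0365), the KO heart with the most Myh6, and with a filter of 50 in place of 10 (adjusted p = 0.0227). The log2 difference between KO+AAV and WT was -0.20 (95% interval -0.87 to 0.48, adjusted p = 0.722).

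The share of Myh7 in the sum of Myh6 and Myh7 sets both chains on a common scale within a heart. At 6 weeks it was 12.9%, 5.53% and 4.52% in KO hearts, against 0.661%, 0.487% and 0.464% in WT hearts. The means were 7.66% ± 4.59 in KO and 0.537% ± 0.108 in WT hearts (SD, n = 3 each). The groups did not overlap, but 3 against 3 hearts allow no exact permutation p below 0.1, which was the two-sided p found (0.133 adjusted over the 4 comparisons of the share).

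At 6 months the share was 1.45%, 8.96%, 9.78% and 3.30% in KO+AAV hearts, 41.5%, 27.3%, 25.3%, 27.1% and 54.6% in KO hearts, and 1.88%, 1.43%, 1.64%, 3.26% and 3.93% in WT hearts. The lowest KO heart was above every heart of the other groups. In KO 5 Myh7 exceeded Myh6, and no other library showed this. KO 5 and KO 1, with the highest shares, were the KO hearts with the most Sorbs2. The mean share was 5.87% ± 4.12 in KO+AAV (n = 4), 35.1% ± 12.7 in KO and 2.43% ± 1.10 in WT hearts (SD, n = 5 each). The exact two-sided permutation p was 0.00794 (adjusted 0.0159) between KO and WT and also between KO+AAV and KO, the smallest these numbers of hearts allow. Between KO+AAV and WT it was 0.135 (adjusted 0.135). Without KO 1 and KO 5 the difference in share between KO and WT was 24.1 percentage points, against 32.7 with all hearts, and lost its call (adjusted p = 0.0571). The groups still did not overlap there, and fewer hearts raise the smallest p, so the number of hearts alone fixed this loss. Without any 1 KO heart the difference between KO+AAV and KO lost its call too (adjusted p = 0.0571 each), as 4 against 4 hearts allow no p below 0.0286.

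**Figure D3:**
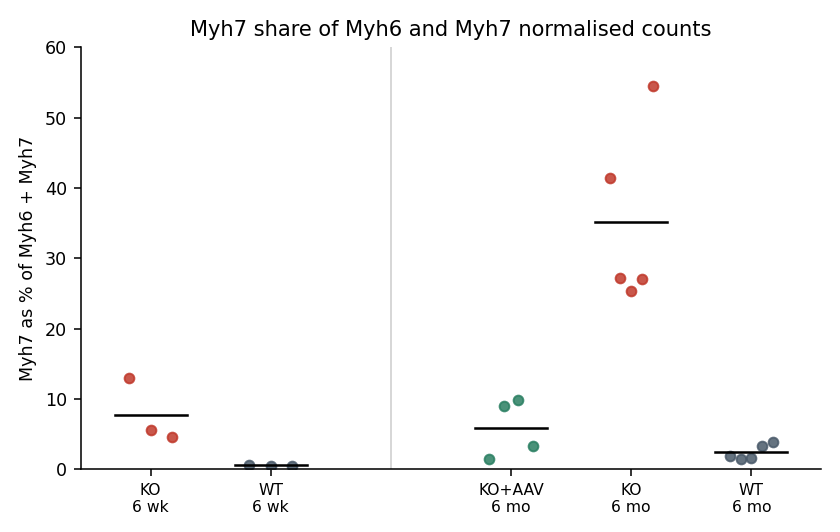
Myh7 as a percent of Myh6 plus Myh7 in each heart (points) with group means (lines), for KO and WT at 6 weeks and KO+AAV, KO and WT at 6 months. The 5 KO hearts of 6 months lie between 25.3% and 54.6%, above all other hearts of that age.

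The mean sum of both chains was lower in KO than in WT hearts at 6 months, but the difference did not pass after adjustment. Myh6 and Myh7 together came to 551746 ± 152170 in KO+AAV (n = 4), 404785 ± 88803 in KO and 596443 ± 59986 in WT hearts at 6 months (SD, n = 5 each). The exact permutation p between KO and WT was 0.0159, but 0.190 after adjustment over the 12 comparisons of sums and ratios that were added after the data were seen, and KO 4, at 557696, lay within the WT range. Together both genes took 4.44% ± 1.04 of the normalised counts in KO+AAV, 3.45% ± 0.66 in KO and 4.57% ± 0.31 in WT hearts. At 6 weeks they took 2.49% ± 0.28 in KO and 3.04% ± 0.19 in WT hearts (SD, n = 3 each).

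Mhrt, the antisense RNA, at 6 months fell in KO relative to WT hearts and rose in KO+AAV relative to KO hearts. At 6 weeks it was at 620, 653 and 910 in KO hearts, against 877, 1686 and 1549 in WT hearts. The highest KO heart lay above the lowest WT heart, and the log2 change was -0.88 (SE 0.26, adjusted p = 0.153, limma). At 6 months it was at 1608, 1475, 512 and 524 in KO+AAV hearts, at 390, 211, 270, 206 and 195 in KO hearts, and at 747, 418, 423, 623 and 1344 in WT hearts. All KO hearts lay below all hearts of the other groups. Between KO and WT it fell by 1.39 on the log2 scale (SE 0.37, adjusted p = 0.0177, limma), or 2.62-fold. Between KO+AAV and KO it rose by 1.86 (SE 0.39, adjusted p = 0.00810), or 3.63-fold, a comparison in which 5.55% of genes were called higher and 6.68% had all KO+AAV hearts above all KO hearts.

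The calls of Mhrt were lost when the sex of the library entered the model, at a log2 change of -1.20 between KO and WT (adjusted p = 0.0604) and of 1.62 between KO+AAV and KO (adjusted p = 0.0502). In male libraries alone the change between KO and WT was -1.05 (adjusted p = 0.0686). The log2 difference between KO+AAV and WT was 0.47 (95% interval -0.36 to 1.31, adjusted p = 0.492).

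Set against Myh6, the neighbour that starts on the other side of the same intergenic stretch, Mhrt differed less. Per 1000 counts of Myh6 there were 1.88 ± 0.77 of Mhrt in KO+AAV (n = 4), 1.07 ± 0.57 in KO and 1.26 ± 0.77 in WT hearts at 6 months (SD, n = 5 each). The exact permutation p was 0.619 between KO and WT (adjusted 0.743) and 0.111 between KO+AAV and KO (adjusted 0.444). At 6 weeks there were 4.56 ± 0.97 in KO and 6.30 ± 2.60 in WT hearts (SD, n = 3 each, exact permutation p = 0.4, adjusted 0.631). In these 3 comparisons the log2 change of Myh7, whose exons Mhrt overlaps, had the opposite sign to that of Mhrt. The log2 change of Myh6, which shares sequence with Mhrt on the opposite strand, had the same sign as that of Mhrt. The part of reads from Myh6 or Myh7 in the Mhrt values was not tested.

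Myh7b passed no test. At 6 weeks it was at 2284, 2024 and 4608 in KO hearts, against 3912, 3800 and 3069 in WT hearts, and 1 KO heart had more than any WT heart. At 6 months it was at 5677, 7532, 2756 and 1993 in KO+AAV hearts, at 2931, 1284, 1733, 2039 and 2645 in KO hearts, and at 3575, 2084, 1941, 3675 and 6034 in WT hearts. All 3 groups overlapped. The log2 change by limma was -0.37 between KO and WT in the younger hearts (95% interval -1.01 to 0.27, adjusted p = 0.572) and -0.64 in the older ones (-1.43 to 0.15, adjusted p = 0.285). It was 0.94 between KO+AAV and KO (0.10 to 1.78, adjusted p = 0.128) and 0.30 between KO+AAV and WT (-0.53 to 1.14, adjusted p = 0.660). An increase like that of Myh7 between KO and WT lies outside these intervals.

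**Figure D4:**
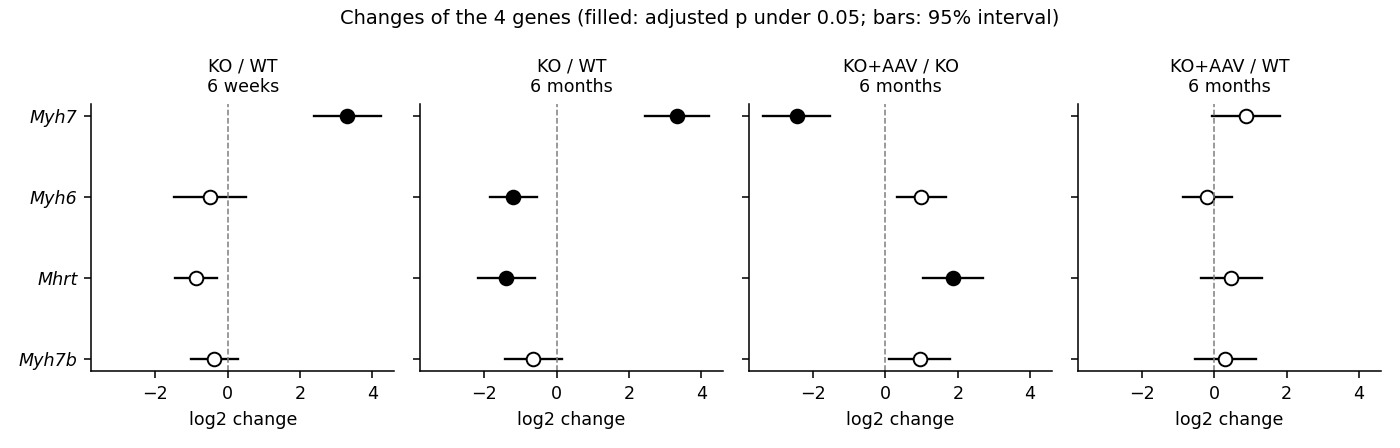
log2 changes of the 4 genes (points) with 95% intervals (bars) in 4 comparisons, from limma on log2(value + 1); filled points have an adjusted p under 0.05. Myh7 is filled in the first 3 comparisons, Mhrt and Myh6 in the second, and Mhrt in the third.

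At 6 months Mhrt and Myh7b were high in the same hearts, those high in Malat1, an abundant RNA that stays in the nucleus and is no myosin gene; it was looked at after the member values were seen. Malat1 was above 60000 in 4 hearts of 6 months: 65963 and 91026 in KO+AAV 1 and 2, 61423 in KO 1 and 66475 in WT 5. The other 10 hearts had 20833 to 35652. Mhrt was at 1475 to 1608 in the 2 KO+AAV hearts of high Malat1, against 512 to 524 in the other KO+AAV hearts. In KO hearts it was at 390 in the heart of high Malat1, against 195 to 270 in the others. In WT hearts it was at 1344, against 418 to 747.

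Myh7b followed the same order, at 5677 to 7532 against 1993 to 2756 in KO+AAV hearts, 2931 against 1284 to 2645 in KO hearts and 6034 against 1941 to 3675 in WT hearts. Myh7 and Myh6 of these hearts were not set apart in this way in all groups. The KO+AAV hearts of high Malat1 had the lowest and the highest Myh7 of their group. Without the 4 hearts, Mhrt still fell between KO and WT (log2 -1.29, adjusted p = 0.000791, limma) and rose between KO+AAV and KO (1.24, adjusted p = 0.0168). With log2 Malat1 as a covariate, Myh7b passed between KO and WT at 6 months (-0.52, adjusted p = 0.0197), and Mhrt passed at 6 weeks (-0.77, adjusted p = 0.0465). What sets these hearts apart was not tested. At 6 weeks the genes did not follow Malat1 in both groups. The KO heart with the most Malat1 (70814) had the most Mhrt (910) and Myh7b (4608) of its group. Among WT hearts of that age, the heart with the least Malat1 (38184) had the least Mhrt (877) but the most Myh7b (3912), and the heart with the most Malat1 (78001) had the least Myh7b (3069).

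**Figure D5:**
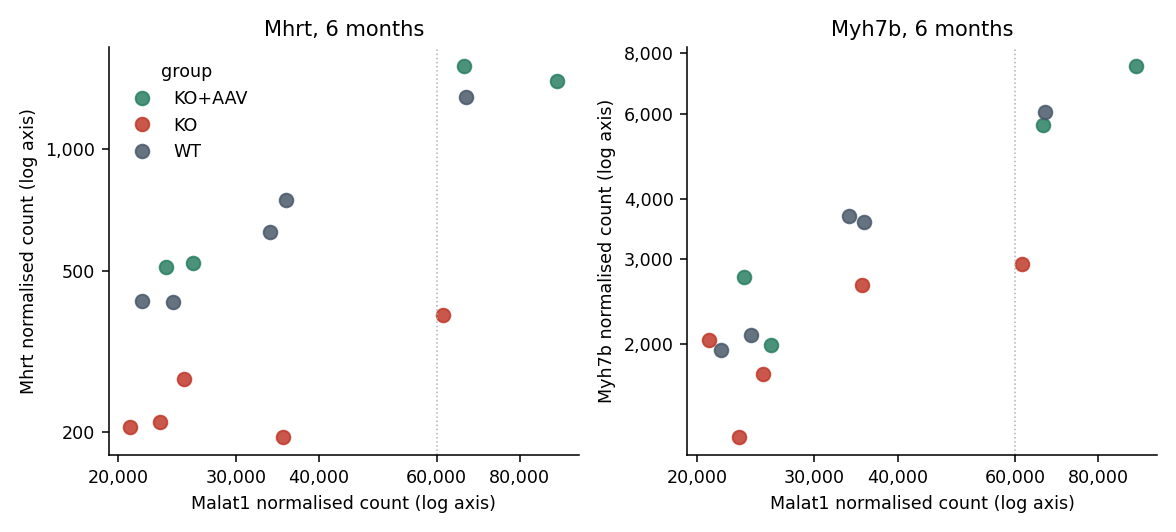
Mhrt (left) and Myh7b (right) against Malat1 in each of the 14 hearts of 6 months, all as normalised counts on log axes; colours give the groups and the dotted line marks 60000. In each group the hearts right of the line have the highest Mhrt and Myh7b, and Mhrt of KO hearts lies below that of the other groups on either side of the line.

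Per kb of transcript, the order of the 4 genes differed between groups. In WT hearts of 6 weeks the medians were 37348 normalised counts per kb for Myh6, 1871 for Mhrt, 617 for Myh7b and 182 for Myh7, and each step of this order held in all 3 hearts. In KO hearts of that age Myh7, at 1329, had passed Mhrt, at 789, and Myh7b, at 371, again in all 3 hearts. At 6 months the WT order was Myh6 at 91000.2, Myh7 at 2106, Mhrt at 753 and Myh7b at 580, in all 5 hearts. In KO hearts it was Myh6 at 42347, Myh7 at 22488, Myh7b at 331 and Mhrt at 255. There, Myh6 exceeded Myh7 in 4 of 5 hearts and Myh7b exceeded Mhrt in 3 of 5, so these steps did not hold in every heart. The order was not tested. In KO+AAV hearts the WT order held, with Myh6 at 76490, Myh7 at 4824, Mhrt at 1207 and Myh7b at 684, and Myh7 above Mhrt in 3 of 4 hearts.

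The size of the knockout effect was compared between ages as the log2 change at 6 months minus that at 6 weeks. It was 0.02 for Myh7, with a 95% interval of -1.20 to 1.23 (adjusted p = 0.994), -0.70 for Myh6 (-1.83 to 0.43, adjusted p = 0.540), -0.51 for Mhrt (-1.45 to 0.42, adjusted p = 0.600) and -0.27 for Myh7b (-1.24 to 0.70, adjusted p = 0.811). None passed, while 4.08% of 12709 genes did. The intervals are wide and allow more than 2-fold differences between ages in either direction for Myh7. Atrial RNA was abundant at 6 weeks alone, so age and tissue content cannot be told apart in these differences. The WT hearts had a mean Myh7 share of 0.537% at 6 weeks, in tissue with atrial RNA, and of 2.43% at 6 months.

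The genes whose log2 values were most like those of each member over the 14 libraries of 6 months are given as a description, from 9220 candidates; the libraries share their groups, so a difference between groups alone gives a high r. For Myh7 they were Ildr2 (r = 0.977), Map3k7cl (0.974), Fmod (0.964), Star (0.959) and Lpp (0.958). For Myh6 they were Hrc (0.961), which binds calcium in the sarcoplasmic reticulum, Abcb8 (0.961), Gcdh (0.958), Slc25a42 (0.954) and Acadvl (0.952), an enzyme of fatty acid oxidation. For Mhrt they were Tars2 (0.986), Cox5b (0.986), Ndufv3 (0.983) and Ndufa3 (0.982), which encode mitochondrial proteins, and Tnni3 (0.980), the adult cardiac troponin I. For Myh7b they were Safb (0.978), Ggnbp1 (0.969), Vwa3a (0.955), Mapk1ip1 (0.955) and Naa38 (0.953). At 6 weeks, over 6 libraries, r for these genes was -0.03 to 0.95. Between members at 6 months r was -0.85 for Myh6 with Myh7 and 0.88 for Mhrt with Myh7b, without any account taken of groups; at 6 weeks these were -0.62 and 0.53 over 6 libraries.

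Other heavy chains of muscle and non-muscle cells were read beside the members. The 7 other sarcomeric heavy chains (Myh1, Myh2, Myh3, Myh4, Myh8, Myh13 and Myh15) gave no gene high enough to be tested: their summed level was 3.07 to 26.6 per library at 6 months and, over the 6 listed in the table of that age (all but Myh15), 3.21 to 23.3 at 6 weeks. Of the 4 non-muscle and smooth muscle chains, Myh10, non-muscle myosin IIB, rose between KO and WT at 6 months, where 8.13% of all genes did. It averaged 639 ± 204 in KO+AAV, 1949 ± 473 in KO and 640 ± 117 in WT hearts (SD). Its log2 change was 1.59 between KO and WT (adjusted p = 0.000225, limma) and -1.64 between KO+AAV and KO (adjusted p = 0.00111). At 6 weeks none of the 4 was called, where 0.589% of all genes were. The KO effect on Myh10 differed between ages by 1.46 (adjusted p = 0.00853). Age and the atrial RNA of the 6-week tissue cannot be told apart there.

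Among 11 myosin light chains, the partners of the heavy chain at the lever arm, 10 were tested at 6 months. Of these 3 rose between KO and WT (Myl1, Myl12a and Myl6b), Myl3 fell, and 6 did not pass, where 8.13% of all genes tested were called higher and 8.18% lower; the median log2 change was 0.01, against 0.00 over all genes. Myl1, the essential light chain of fast skeletal and fetal muscle, averaged 833 ± 281 in KO+AAV, 1682 ± 759 in KO and 131 ± 34.3 in WT hearts (SD). Its log2 change was 3.58 between KO and WT (adjusted p = 1.73e-06) and it stayed 2.62 above WT in KO+AAV hearts (adjusted p = 0.000498, limma). At 6 weeks none of 11 light chains was called, where 0.589% of all genes were. Myl1 was then at 1474 ± 218 in KO and 1194 ± 203 in WT hearts (SD, n = 3 each). The KO effect on Myl1 differed between ages by 3.27 (adjusted p = 5.94e-06). In this difference, age and the atrial RNA of the 6-week tissue cannot be told apart.

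Of 16 thick filament partners, 14 were tested at 6 weeks and 13 at 6 months. Mybpc2, the fast myosin-binding protein C, rose at both ages. Its log2 change between KO and WT was 2.25 in the younger hearts (adjusted p = 0.0217) and 2.67 in the older ones (adjusted p = 1.29e-05, limma), and it fell by 1.89 between KO+AAV and KO (adjusted p = 0.00151). Myom3, an M-band protein, rose by 3.02 at 6 months (adjusted p = 2.19e-05) and fell by 1.72 with the vector (adjusted p = 0.00652). Unc45b, a chaperone of myosin folding, fell by 0.44 between KO and WT (adjusted p = 0.0292). The other 10 did not pass at 6 months, the cardiac myosin-binding protein C gene Mybpc3 among them (log2 -0.20), and the list's median was -0.12. The 2 that rose and the 1 that fell of 13 stand beside 8.13% and 8.18% of all genes.

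Of 15 thin filament genes, 2 rose at 6 weeks and none fell: Acta1, skeletal alpha-actin (log2 2.01, adjusted p = 0.0264), and Tnni1, slow skeletal troponin I of the fetal heart (1.97, adjusted p = 0.0264, limma). Over all genes 0.378% were called higher at that age. At 6 months 3 rose, 5 fell and 7 did not pass, with a median of -0.15, beside 8.13% of all genes called higher and 8.18% lower. The summed level of the 15 genes was 478955 to 552995 in KO and 571314 to 726087 in WT hearts of that age. Acta1 rose by 2.60 (adjusted p = 0.00294), Tnni1 by 3.38 (adjusted p = 0.000236) and Tpm2, beta-tropomyosin, by 1.21 (adjusted p = 0.0123). Tnni1 stayed low, at 22.3 ± 6.59 in KO hearts, against 47045 ± 7204 for Tnni3, its adult counterpart (SD, n = 5). In WT hearts of 6 months Tnni1 was at no more than 3.10, below the value that the filter asks for. The size of its change at that age thus depends on the pseudocount, although the lowest KO heart, at 14.5, lay above every WT heart. Tnni3 fell by 0.97 (adjusted p = 0.0212) and rose by 1.23 with the vector (adjusted p = 0.0124).

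Of 44 genes chosen as known or proposed regulators of myosin heavy chain genes, 41 were tested at 6 weeks, with none called by limma. Over all genes 0.589% were called at that age, so this count sets the regulators apart from no other genes. At 6 months 42 were tested between KO and WT: 5 rose, 1 fell and 36 did not pass, with a median of -0.04. That share is close to the 16.3% called among all genes, so the count says nothing particular about these regulators. Vgll2, a cofactor of TEAD factors, was at 51 ± 29 in KO+AAV, 441 ± 233 in KO and 3.71 ± 1.75 in WT hearts (SD). Its log2 change was 6.45 between KO and WT (adjusted p = 6.34e-07, limma) and -3.17 between KO+AAV and KO (adjusted p = 0.00124). It stayed 3.28 above WT in KO+AAV hearts (adjusted p = 0.00204). All WT values of Vgll2, 1.95 to 6.61, lay below the value that the filter asks for. The size of its changes from WT thus depends on the pseudocount. The lowest heart was at 175 in KO and at 14.2 in KO+AAV, above every WT heart. The TEAD genes themselves were not called, at log2 0.28 for Tead1, -0.11 for Tead2, -0.01 for Tead3 and -0.22 for Tead4.

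Dio2, the enzyme that activates thyroid hormone in the tissue, averaged 36.8 ± 20.7 in KO+AAV, 369 ± 101 in KO and 24.3 ± 3.15 in WT hearts (SD). Its log2 change was 3.84 between KO and WT (adjusted p = 6.93e-07) and -3.40 between KO+AAV and KO (adjusted p = 6.62e-05, limma). At 6 weeks it was at 74.9 ± 33.7 in KO and 46.1 ± 18.8 in WT hearts without a call, and the KO effect differed between ages by 3.17 (adjusted p = 0.000268). Here too, age and the atrial RNA of the 6-week tissue cannot be told apart. The thyroid hormone receptor gene Thrb fell by 0.68 between KO and WT (adjusted p = 0.0280), and Thra changed by -0.07 without passing. Rcan1, a target and regulator of calcineurin, rose by 1.55 between KO and WT (adjusted p = 0.00539) and fell by 1.70 with the vector (adjusted p = 0.00820). Smarca4, which encodes Brg1, the partner of Mhrt, changed by -0.10 without passing.

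The genes that flank the heavy chain loci were read as well. Of 15 neighbours of Myh6, Myh7 and Myh7b, 14 were tested at 6 weeks with none called, and 12 at 6 months, where Procr alone fell between KO and WT (log2 -1.52, adjusted p = 0.00486, limma). Their median log2 change at 6 months was 0.06. Over all genes 0.589% were called at 6 weeks and 16.3% at 6 months, so these counts set the neighbours apart from no other genes.

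Some markers of other cells moved with Myh7. Of 8 fibroblast markers 6 rose between KO and WT at 6 months, where 8.13% of all genes did, and their summed level was 16202 to 19822 in KO+AAV, 28077 to 44077 in KO and 13068 to 17749 in WT hearts. At 6 weeks the fibroblast sum was 23561 to 35725 in KO and 19128 to 22071 in WT hearts, and that of 6 endothelial markers was 13602 to 18130 in KO and 6969 to 11267 in WT hearts. No marker of either list was called at that age, where 0.589% of all genes were. At 6 months none of the 6 endothelial and 5 macrophage markers was called between KO and WT by limma, and of 6 mural markers 1 rose and 1 fell. Of 10 fast skeletal markers 5 were tested in that comparison: 3 fell and 0 rose, with a median log2 change of -1.28. Over all genes 8.13% were called higher and 8.18% lower there. The part of these cells in the values of the heavy chains was not tested. The summed level of 7 atrial markers was 7756 to 32738 in KO+AAV, 37494 to 126867 in KO and 5919 to 9987 in WT hearts. Nearly all of it was Nppa, which stressed ventricles also express (36237 to 126811 in KO hearts). Other atrial markers were low at 6 months. The highest KO heart was at 634 for Myl4, 459 for Myl7, 89.9 for Sln and 71.0 for Mybphl. The highest WT heart was, in the same order, at 89.2, 47.5, 9.55 and 17.9. The KO means were 159 ± 266, 92.9 ± 205, 24.9 ± 36.7 and 14.4 ± 31.7 (SD, n = 5), so each SD exceeded its mean. For Myl4, Myl7 and Mybphl the lowest KO heart lay below the lowest WT heart. The maxima of these genes thus do not describe the KO group as a whole. Bmp10, which defines the right atrium, was at no more than 0.960 in KO+AAV, 0 in KO and 1.88 in WT hearts. The part of atrial RNA in the 6-month values was not tested.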

How the data were processed

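RNA of 20 mouse hearts was sequenced as pairs of 150 bases, at least 40 M per sample, per the labels and series text, which name DESeq2 for the authors' own comparisons. The authors deposited normalised counts, a signal that is fractional and on a common scale within each of 2 tables, 1 per age. Whole reads could not be recovered from them, so the depth behind each value is unknown. The build was mm10, per the submitters' processing notes; the sources used here name no aligner, counter, annotation or strand setting. Columns of 6 months were matched to samples by name, those of 6 weeks to groups alone. No column was left out.

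Values were taken as log2(value + 1). Genes with a value of 10 or more in at least 3 libraries (6 weeks) or 4 (6 months), the size of the smallest group, were tested two-sided with limma 3.58.1 in R 4.3.3, with a trend of variance on level, 1 model per age, and Benjamini-Hochberg adjustment over all genes tested (threshold 0.05). Ages were compared by the difference of log2 changes over the combined standard error. Shares, sums and ratios were compared by exact two-sided permutation of |difference of means|. Samples are separate mice by their labels. The limma step was tested on simulated data. Tables were handled with pandas 2.3.3 and numpy 2.4.6 in Python 3.11.15 and drawn with matplotlib 3.10.9. Positions are from GENCODE M21 and sequences from RefSeq tables (GRCm38.p6).

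Members, lists and tests were chosen with earlier results of these data known. Other genes named are up to 5 of smallest p per list and comparison, members of a list whose role needs a value, and the 5 genes most alike to each member with a mean of at least 100. Alternatives covered the pseudocount, the filter, the scaling, single libraries, sex, the replicate number, the model and the form of the share. Those on Malat1, on KO hearts of higher Sorbs2 and on sums and ratios were chosen after seeing the data.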

Additional observations from a re-analysis of the deposited data

Results flagged for a closer look

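Among 24 groups of 4 or 5 hearts at 6 months in which the sums, shares, ratios and member values were examined for a heart far from the others, 2 held one, where chance alone gives about 1 in 20. In KO hearts, Myh6 and Myh7 together came to 557696 in KO 4, a gap of 0.728 of the group's range from the next heart. The other 4 KO hearts had 332528 to 393705. In WT hearts, Mhrt per 1000 counts of Myh6 was 2.60 in WT 5, a gap of 0.771 of the range, and the others had 0.684 to 1.12. WT 5 is also the WT heart with the highest Malat1 (66475). No difference of the KO effect between ages passed for a member.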

How the results depend on the processing

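Each change of a member was recomputed in 14 (6 weeks), 27 (6 months) or 31 (difference between ages) alternatives. Myh7 kept its direction and its call in all 27 between KO and WT at 6 months, and in all 27 between KO+AAV and KO. It kept its direction in all 14 at 6 weeks and lost its call without the WT library headed WT6 alone. Where no cause is named below, the cause was not tested. The counts behind the values are unknown, so edgeR and DESeq2 were not run.

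Myh6 between KO and WT at 6 months lost its call with no filter (log2 -1.19, adjusted p = 0.376), under quantile normalisation (-0.46, adjusted p = 0.342) and without KO 1 and KO 5 (-0.88, adjusted p = 0.0857). It gained a call between KO+AAV and KO with a filter of 50 (0.99, adjusted p = 0.0227), with Malat1 as covariate (1.01, adjusted p = 0.0280) and without KO 4. Mhrt at 6 months lost its call between KO and WT with sex class as covariate (-1.20) and in male libraries alone (-1.05), and between KO+AAV and KO with sex class as covariate (1.62). With Malat1 as covariate Mhrt gained a call at 6 weeks (-0.77) and Myh7b at 6 months between KO and WT (-0.52).

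Signs turned for differences that were never called. For KO+AAV against WT, Myh7b was at -0.20 and Mhrt at -0.048 without the 4 hearts of high Malat1, and Myh7b at -0.022 with Malat1 as covariate. Between ages, Myh7b was at 0.11 in male libraries of 6 months and Myh7 at -0.22 without KO 1 and KO 5. Without these 2 hearts, Myh7b per 1000 Myh6 differed by -0.81 between KO and WT and by 3.14 between KO+AAV and KO. With 1 heart left out, that measure was as high as 0.67, 0.70 and 0.37 between KO+AAV and KO (range -2.85 to 0.70), and -2.15 to 5.16 at 6 weeks. Mhrt per 1000 Myh6 was -0.42 to 0.15 between KO and WT at 6 months, and the sum of Myh6 and Myh7 was -114000 to 595 between KO+AAV and WT.

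The difference in Myh7 share missed its threshold without the 4 hearts of high Malat1 (31.5 points between KO and WT, -27.0 between KO+AAV and KO, adjusted p = 0.0889 each) and without KO 1 and KO 5 (24.1 and -20.7 points, adjusted p = 0.0571 each), where fewer hearts raise the smallest p. Without any 1 KO heart it missed between KO+AAV and KO (range -31.7 to -24.4), since 4 against 4 hearts allow no p below 0.0286. The difference from WT in KO+AAV hearts was 2.14 to 4.92 points and passed without KO+AAV 1 (adjusted p = 0.0476).

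With 1 library left out, the log2 change of Myh7 at 6 weeks was 2.74 to 3.60, and its difference between ages -0.28 to 0.58. Myh6 between KO+AAV and KO was 0.80 to 1.16. Myh7b was 0.63 to 1.27 between KO+AAV and KO, passing without KO+AAV 4 (adjusted p = 0.0452), -0.011 to 0.63 between KO+AAV and WT, and -0.50 to 0.095 between ages.

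Counts of genes called between KO and WT at 6 weeks, 78 in all, were 36 at equal totals, 189 with sex class and 198 with Malat1 as covariate, and 7 (without KO4) to 163 with 1 library left out. Between KO and WT at 6 months, 2189 became 3696 with Malat1 as covariate and 1402 without KO 1 and KO 5. For KO+AAV against KO, 1509 became 542 with sex class, 335 in males alone, 571 without the hearts of high Malat1 and 568 (without KO+AAV 1) to 1816 with 1 library left out. For KO+AAV against WT, 178 became 46 in males alone, 102 with 2 groups in the model, 538 with Malat1 as covariate and 107 to 472 with 1 left out. Between ages, 518 became 1107 with Malat1 as covariate and 205 to 585 with 1 left out. Equal totals moved the median of all genes by 0.16 between KO and WT at 6 months and turned 1091 higher and 1098 lower genes into 1775 and 653. The changes of Myh7, 3.48, and Mhrt, -1.23, kept their calls there.

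Replicate numbers of 6 months were not used as pairs in the main model. After removal of group means, 7 of 13 like-numbered pairs correlated above 0.1 (-0.391 to 0.253), which does not settle whether the numbers pair hearts. With the replicate block Myh7 changed by 3.32 (adjusted p = 0.000470) between KO and WT, and no member gained or lost a call. Columns of 6 weeks carry no number of the labels, so no pairing was tried there.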
